A study of Mus musculus with 6 samples.

Results

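Low oxygen and high demand for sugar are answered in mammalian cells by a shared set of genes, and 10 of them were followed here in the embryonic mouse tongue: Slc2a1, Ndrg1, Egln1, Egln3, Bnip3, Vegfa, Pgk1, Ldha, Hk2 and Pdk1. They were chosen by name, as well-known targets of the hypoxia response and enzymes of glycolysis, with earlier results of these data known. Every probe set whose only gene symbol in the platform annotation was a member's was taken. A probe set is a group of short array probes that together read a transcript. All 10 genes were on the array, read by 24 probe sets, among 18193 genes named by at least 1 probe set. Total RNA from tongues of strain C57BL/6J at embryonic day 14.5 was measured on 6 Affymetrix arrays. The 3 mutants were Tgfbr2 fl/fl with Wnt1-Cre, and the 3 controls were Tgfbr2 fl/fl without Cre, so that both genotypes carried the floxed alleles of the type II TGF-beta receptor gene. Wnt1-Cre recombines in the neural crest, which forms most of the tongue's connective tissue, whereas muscle fibres, the covering epithelium and vessel lining arise elsewhere and keep the receptor gene. The study asked which genes in the developing tongue depend on TGF-beta signalling. Loss of the receptor and presence of the recombinase cannot be told apart, since no group carried Cre alone, and nothing says whether the tongues came from separate litters, so the p-values speak only for the scatter among these 6 tongues, which may be technical. The sample titles call the controls Tgfbr2 wildtype, while their genotype label gives the floxed alleles. The labels speak of both tongue and tongue mesenchyme and give the sex as not determined. By Xist and Y-linked genes the sexes were unbalanced: Xist was high in mutant arrays 1 and 3 and control array 1, and the Y-linked genes were high in mutant array 2 and control arrays 2 and 3.

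The pathway turns on hypoxia-inducible factor (HIF), a transcription factor made of an oxygen-labile alpha subunit and the stable partner ARNT. When oxygen is plentiful, prolyl hydroxylases of the EGLN family mark the alpha subunit, the VHL ubiquitin ligase binds it, and it is destroyed. When oxygen is scarce the alpha subunit persists and switches on genes for glucose uptake, glycolysis, restraint of mitochondrial pyruvate oxidation, mitochondrial turnover and vessel growth. Several of these targets also answer to growth factors, nutrients and differentiation, and Ndrg1 and Slc2a1 are prominent in epithelia.

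Of the 10 genes, 3 were higher in the mutants at an adjusted p under 0.05 and 0 were lower: Ndrg1 (1.89-fold), Slc2a1 (1.81-fold) and Egln3 (1.68-fold). The calls come from limma fitted to the 13645 genes above the intensity filter, each read by its brightest probe set, where 2.14% of genes passed in either direction and 1.32% passed as higher. The 3 mutant values lay above all 3 control values for 7 of the 10 genes, against 13.6% of all tested genes. The median log2 difference of the 10 was 0.32, against 0.02 over all tested genes, and 9 of 10 differences were positive. Because the 10 were chosen with earlier results of these data known, these counts give no independent support for a change in the pathway. The uncalled Bnip3 and Pdk1 had differences of 0.61 and 0.41, whereas those of Pgk1, Ldha and Hk2, the 3 glycolytic enzymes, were between -0.03 and 0.12. With control array 2 removed limma called 0 of the 10 genes and 5 had an unadjusted p under 0.05, and with control array 3 removed it called 0 and 6 did. Over all tested genes those fits called only 16 and 19, against 292 with all arrays, so the loss was not particular to the 10 genes. Removing mutant array 2 or control array 1 left 1 call, that of Ndrg1, and removing mutant array 1 left all 3.

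**Figure D1:**
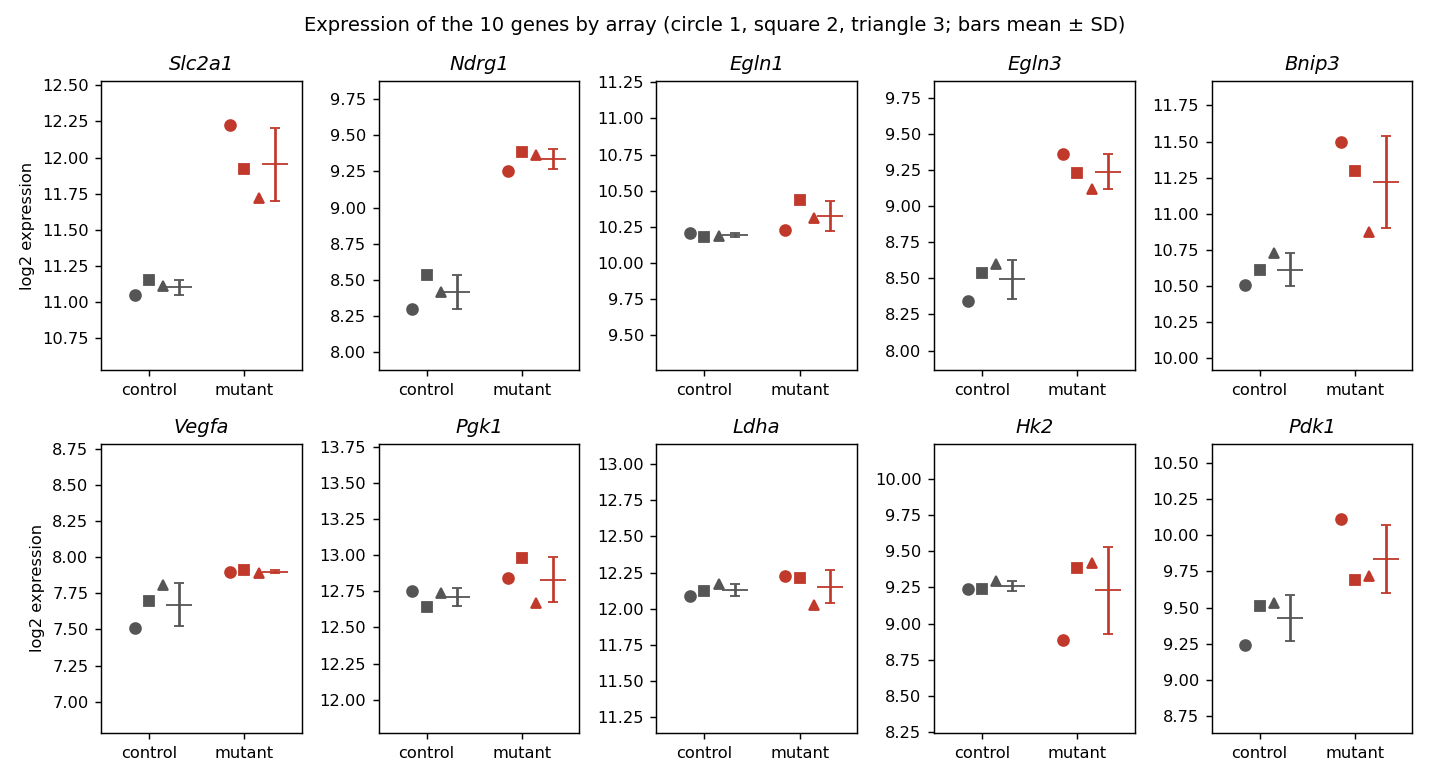
Each panel shows log2 expression of 1 gene on its brightest probe set, with 3 control arrays in grey and 3 mutant arrays in red (circle, square and triangle for arrays 1, 2 and 3) and the mean ± SD beside them; every panel spans the same number of log2 units. Groups are apart for 7 genes, widely so for Slc2a1, Ndrg1 and Egln3, and overlap for Pgk1, Ldha and Hk2.

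Mutant array 1 stood apart from the other arrays in this series. Over the tested genes it correlated with the other 5 at 0.966 to 0.978, while the other arrays correlated with each other at 0.984 to 0.998. Tgfbr2 itself differed by -0.18 on the log2 scale (11.54 ± 0.34 in mutants, 11.72 ± 0.15 in controls, SD, n = 3; adjusted p = 0.642), and by 0.01 without mutant array 1; the sources used here do not say whether the probes lie in the deleted stretch, so this does not check the genotype.

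HIF acts at short DNA elements with the core A or G followed by CGTG, and the promoter windows below show where these letters stand in members that differed between the genotypes and in members that did not. RefSeq windows of build GRCm38.p6 run from 250 bases before to 50 after a transcription start, and 9 of the 10 members had at least 1 (12 windows in all). Not in this table was Ndrg1. The letters ACGTG or GCGTG were searched on both strands, and every match is in capitals, so that CACGT and CACGC mark matches on the opposite strand and CACGTG, a palindrome that is also the E-box bound by other factors, holds a match on each strand. Printed are Slc2a1 (chr4:119108495-119108794, plus strand), Egln3 (chr12:54203825-54204124, minus strand), Bnip3 (chr7:138909457-138909756, minus strand), Pgk1 (chrX:106186850-106187149, plus strand) and Ldha (chr7:46845554-46845853, plus strand), each 5′ to 3′ along the gene.
Slc2a1: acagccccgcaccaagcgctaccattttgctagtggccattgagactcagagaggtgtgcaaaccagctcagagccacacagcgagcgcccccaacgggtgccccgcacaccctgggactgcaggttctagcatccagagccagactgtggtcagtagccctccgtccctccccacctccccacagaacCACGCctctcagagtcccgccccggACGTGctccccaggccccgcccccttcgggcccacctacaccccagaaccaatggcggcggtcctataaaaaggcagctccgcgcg
Egln3: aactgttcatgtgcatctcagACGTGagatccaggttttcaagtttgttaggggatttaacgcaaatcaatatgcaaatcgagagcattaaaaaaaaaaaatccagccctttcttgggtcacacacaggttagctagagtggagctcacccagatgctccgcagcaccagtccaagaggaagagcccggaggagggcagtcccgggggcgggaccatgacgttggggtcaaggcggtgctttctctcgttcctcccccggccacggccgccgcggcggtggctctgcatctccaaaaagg
Bnip3: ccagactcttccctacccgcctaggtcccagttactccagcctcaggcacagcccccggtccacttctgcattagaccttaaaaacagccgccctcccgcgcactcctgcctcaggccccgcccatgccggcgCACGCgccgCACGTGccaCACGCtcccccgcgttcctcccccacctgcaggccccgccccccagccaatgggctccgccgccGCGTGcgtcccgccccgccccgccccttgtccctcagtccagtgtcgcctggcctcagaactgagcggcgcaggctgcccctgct
Pgk1: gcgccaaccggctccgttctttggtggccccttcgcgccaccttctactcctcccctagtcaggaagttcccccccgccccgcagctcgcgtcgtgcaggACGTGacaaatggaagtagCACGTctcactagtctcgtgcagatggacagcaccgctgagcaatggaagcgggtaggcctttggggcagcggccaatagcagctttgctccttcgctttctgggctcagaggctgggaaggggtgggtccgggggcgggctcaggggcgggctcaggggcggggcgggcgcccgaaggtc
Ldha: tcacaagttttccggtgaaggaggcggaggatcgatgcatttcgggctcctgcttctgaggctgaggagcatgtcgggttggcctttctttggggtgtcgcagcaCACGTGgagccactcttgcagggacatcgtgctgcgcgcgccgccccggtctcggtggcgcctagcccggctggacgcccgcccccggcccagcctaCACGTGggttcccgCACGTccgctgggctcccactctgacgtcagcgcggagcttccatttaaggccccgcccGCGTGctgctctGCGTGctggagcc

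Matches were present in at least 1 window of all 9 members, against 46.7% of all genes with a window, and in 10 of the 12 windows. Vegfa, not printed, counts through 1 window only. Its window at chr17:46025114-46025413 (minus strand) held 2 matches. Its other window, upstream at chr17:46032328-46032627, held 0. Pdk1 also had 1 window with 2 matches and 1 with 0. Which of these starts is used in the tongue was not tested. Among all 32851 RefSeq windows, 43.8% held a match, and over the 9690 windows with at least 60% G and C, 69.2% did. The members' windows held between 40.3% and 86.0% G and C, against a median of 52.7% over all windows. The Ldha window printed had 7 matches and that of Bnip3 had 5, counting both strands of a palindrome, which 2 of the members' windows held (7.15% of all windows). Slc2a1 and Pgk1 had 2 matches each and Egln3 had 1. Windows of genes that rose and of genes that did not both held the letters: Ldha, with the most matches, had a log2 difference of 0.03, and Egln3, with 1, had 0.74.

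Among the oxygen sensors, Egln3 was higher in the mutants and Egln1 was not called. Egln3 encodes PHD3, a prolyl hydroxylase that is itself a strong HIF target. Its log2 values, listed here and later in the order of arrays 1, 2 and 3, were 9.36, 9.23 and 9.12 in the mutants and 8.34, 8.53 and 8.60 in the controls. Every mutant value was above every control value, and the gap between the groups exceeded the spread within each. The log2 difference was 0.74 (standard error 0.11, adjusted p = 0.0238). Its other, dimmer probe set differed by 0.40, again with all mutants above all controls, but without a call when each of 45037 probe sets was tested on its own (adjusted p = 0.148). Taken as the mean of both probe sets the Egln3 difference was 0.57 (adjusted p = 0.0243). Egln1 encodes PHD2, the main HIF hydroxylase in most tissues. Egln1 read 10.23, 10.44 and 10.31 in the mutants and 10.21, 10.18 and 10.18 in the controls. The groups did not overlap, yet mutant array 1 was almost level with the highest control. With a log2 difference of 0.13 (standard error 0.09, 95% interval -0.08 to 0.34, adjusted p = 0.497) it was not called, and its other probe set gave -0.06.

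Slc2a1 encodes GLUT1, the transporter that brings glucose into most embryonic cells, and was the brightest of the 3 called genes. Its values were 12.22, 11.92 and 11.72 in the mutants and 11.05, 11.15 and 11.11 in the controls. The controls lay close together (SD 0.0526), and the mutants were higher by more than the spread in either group, with mutant array 1 the highest. The log2 difference was 0.85 (standard error 0.13, adjusted p = 0.0271), and 0.72 (adjusted p = 0.00880) without mutant array 1. All 3 of its probe sets gave mutants above controls, with differences of 0.85, 0.85 and 0.71. The Slc2a1 call was lost with sex, read from Xist and the Y-linked genes, as a covariate (0.86, adjusted p = 0.0697).

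The glycolytic enzymes did not pass. Hk2 encodes hexokinase 2, which traps glucose in the cell as glucose 6-phosphate and is the inducible hexokinase of muscle. It read 8.88, 9.39 and 9.42 in the mutants and 9.24, 9.24 and 9.30 in the controls, so that mutant array 1 was the lowest array and the other two mutants were the highest. Its log2 difference was -0.03 (95% interval -0.38 to 0.32, adjusted p = 0.938) and became 0.14 without mutant array 1 (adjusted p = 0.326). Pgk1 encodes phosphoglycerate kinase, an ATP-forming step of glycolysis, and lies on the X chromosome. Its values were 12.84, 12.98 and 12.67 in the mutants and 12.75, 12.64 and 12.74 in the controls, which overlap. The Pgk1 difference was 0.12 (95% interval -0.13 to 0.36, adjusted p = 0.604), 0.15 with the sex covariate, and -0.01 on both of its other probe sets. Ldha encodes the lactate dehydrogenase subunit that favours the turning of pyruvate into lactate. Ldha read 12.22, 12.21 and 12.03 in the mutants and 12.09, 12.12 and 12.17 in the controls, with mutant array 3 the lowest of the 6 arrays. Its difference was 0.03 (95% interval -0.19 to 0.24, adjusted p = 0.915). The upper ends of these 3 intervals correspond to 1.25-fold for Hk2, 1.29-fold for Pgk1 and 1.18-fold for Ldha, below the fitted folds of the 3 called genes.

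Pdk1 and Bnip3, which hold back mitochondrial metabolism, had higher values in all 3 mutants but were not called. Pdk1 encodes a kinase that inactivates pyruvate dehydrogenase and so restrains the oxidation of pyruvate in the mitochondria. Its values were 10.11, 9.69 and 9.72 in the mutants and 9.24, 9.51 and 9.53 in the controls. Control array 1 was the lowest and mutant array 1 the highest, with the other 4 arrays within a narrow band. The Pdk1 difference was 0.41 (standard error 0.14, adjusted p = 0.212), and its 4 probe sets ranged from -0.08, on a dim one below the intensity filter, to 0.41. Bnip3 encodes a mitochondrial outer membrane protein that promotes the removal of mitochondria and cell death. It had the values 11.49, 11.30 and 10.87 in the mutants and 10.51, 10.61 and 10.73 in the controls. Mutant array 3 was close to control array 3, while mutant arrays 1 and 2 were well above. The Bnip3 difference was 0.61 (standard error 0.16, 95% interval 0.23 to 0.99, adjusted p = 0.124). It passed when mutant array 3 was left out (0.78, adjusted p = 0.0388) and in none of the other 15 alternatives that were fitted.

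Read by the brightest probe sets of all arrays, Ndrg1 had the largest difference of the 10 genes, but Slc2a1 was ahead as the mean of probe sets (0.80 against 0.58) and without mutant array 3 (0.97 against 0.90). It encodes an N-myc downstream regulated protein induced by hypoxia, metal stress and differentiation, with roles in myelin-forming and epithelial cells. The values were 9.26, 9.38 and 9.36 in the mutants and 8.30, 8.53 and 8.42 in the controls, 2 narrow groups far apart. The log2 difference was 0.92 (standard error 0.10, adjusted p = 0.00911), and 0.96 (adjusted p = 0.00345) without mutant array 1. Its probe sets disagreed in size: the differences of the 5 were 0.92, 0.77, 0.61, 0.32 and 0.26, the largest on the brightest, whose name ends in a suffix for probes that can match similar transcripts. As the mean of all 5 the difference was 0.58 (adjusted p = 0.0372). For 4 of the 5 the groups did not overlap. The Ndrg1 call was kept in 14 of 16 alternatives, more than those of Egln3 (12) and Slc2a1 (11).

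Vegfa encodes the growth factor that draws in and maintains blood vessels, a classical HIF target. Its values were 7.90, 7.91 and 7.89 in the mutants and 7.51, 7.70 and 7.80 in the controls. The mutants were nearly identical (SD 0.0110) and lay just above control array 3. The Vegfa difference was 0.23 (standard error 0.10, 95% interval -0.01 to 0.46, adjusted p = 0.309), and that of its other, dim probe set was 0.06.

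**Figure D2:**
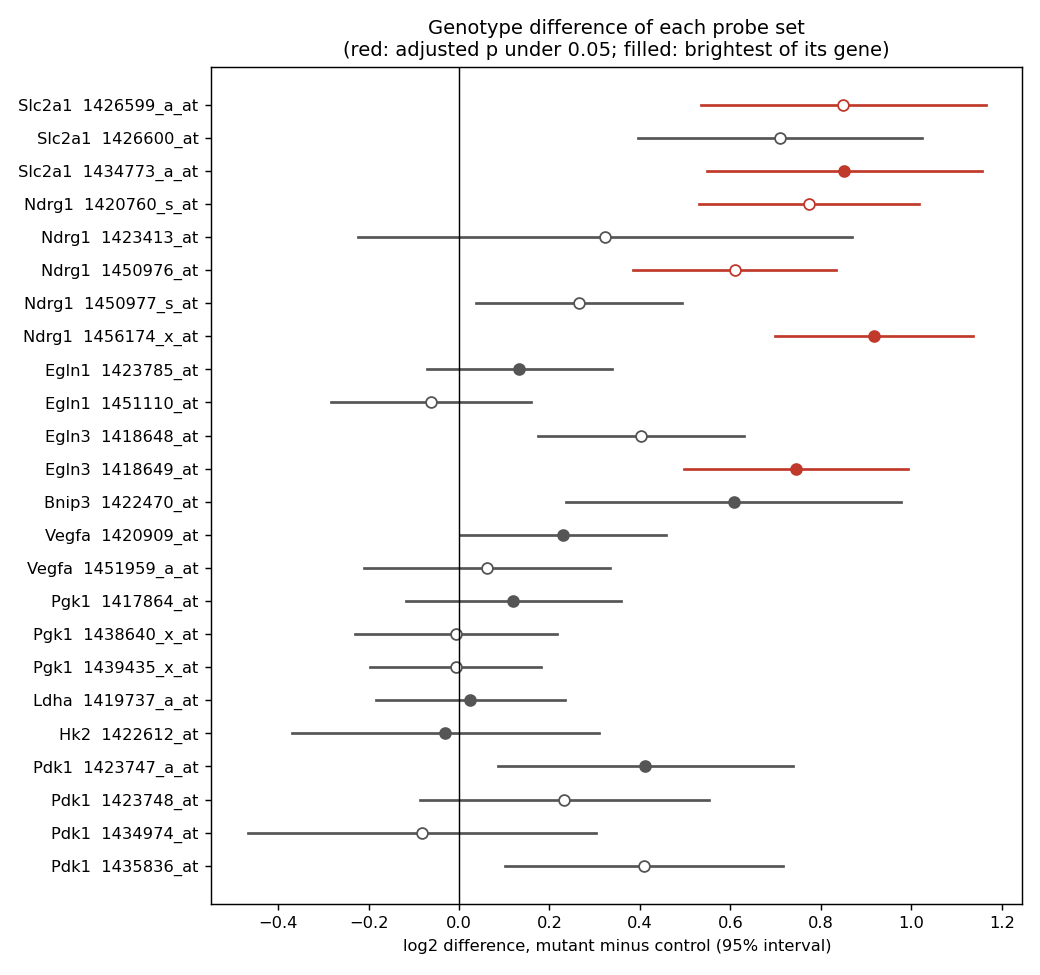
Points show the log2 difference, mutant minus control, for each of the 24 probe sets, with its 95% interval; filled points are the brightest probe set of a gene and red marks an adjusted p under 0.05 over all 45037 probe sets. The 6 red points belong to Ndrg1 (3), Slc2a1 (2) and Egln3 (1), and the intervals of Pgk1, Ldha and Hk2 all include 0.

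Tested as separate probe sets, 6 of the 24 passed, all higher, where 0.422% of 45037 probe sets were called higher. Probe sets of the same gene read the same RNA and are not replicates. The 6 belonged to Ndrg1, Slc2a1 and Egln3, and with the replicate numbers of the titles as a block 3 passed, 2 of Ndrg1 and 1 of Slc2a1. The Egln3 probe set then had an adjusted p of 0.0532. Without control array 2 or 3, 0 of the 24 passed, and without mutant array 2 or control array 1, 1 did. Over all 45037 probe sets, 0 and 14 passed without control arrays 2 and 3, against 337 with all arrays.

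Across arrays the 10 genes did not share a single order. After subtracting each gene's control mean, their median log2 value was 0.45, 0.27 and 0.24 in the mutants and -0.08, 0.01 and 0.04 in the controls. Mutant array 1 was the highest of the 6 arrays for 5 of the genes (31.2% of all tested genes), namely Slc2a1, Egln3, Bnip3, Ldha and Pdk1. Mutant array 2 was the highest for 4 (23.4%), namely Ndrg1, Egln1, Vegfa and Pgk1. Control array 1 was the lowest for 6 (9.84%): Slc2a1, Ndrg1, Egln3, Bnip3, Vegfa and Pdk1. In Slc2a1, Egln3, Bnip3 and Ldha mutant array 1 was above array 2 and array 2 above array 3, whereas in Ndrg1 mutant array 1 was the lowest of the mutants.

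**Figure D3:**
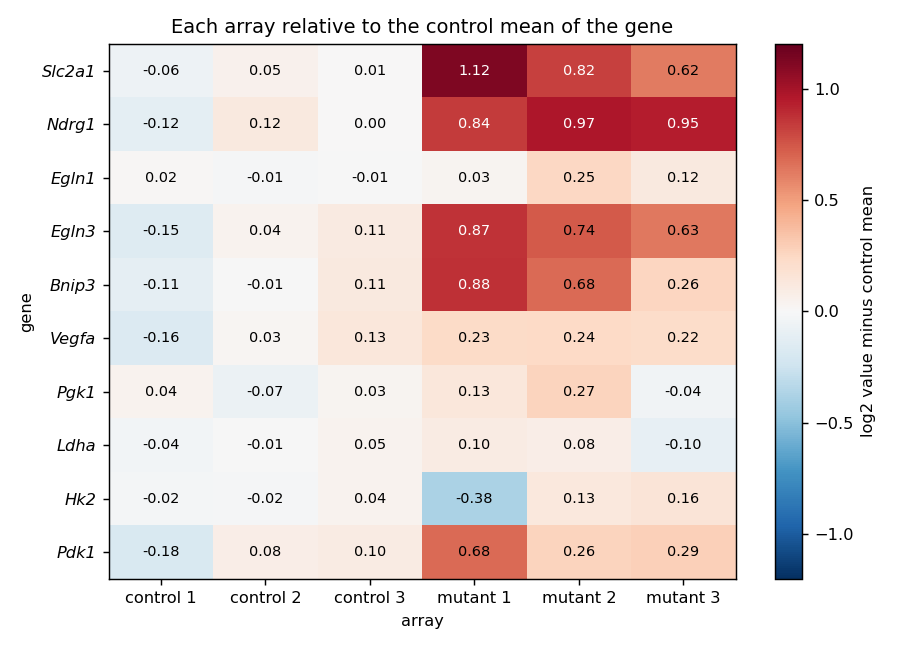
Rows are the 10 genes and columns the 6 arrays; colour and number give the log2 value minus the control mean of that gene. Slc2a1, Ndrg1 and Egln3 are raised in all 3 mutant arrays (0.62 to 1.12), Bnip3 and Pdk1 most in mutant array 1, and Hk2 is lowest there (-0.38).

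The genes whose values over the 6 arrays were most like those of Ndrg1, the member with the smallest p, were Rps20 (Pearson r 0.998), Pla2r1 (0.995), Klf4 (0.993), S100a6 (0.991) and Ppic (0.989). A correlation takes no account of size: Rps20, a ribosomal protein gene, differed by only 0.03, while S100a6, a calcium-binding protein gene, rose by 1.29 (adjusted p = 0.00447) and Klf4, a transcription factor gene of epithelial differentiation, rose by 0.42 (adjusted p = 0.0476, but 0.0779 with the replicate numbers as a block and 0.0670 with median centring). Among the members, r with Ndrg1 was 0.958 for Egln3, 0.917 for Slc2a1 and 0.844 for Vegfa, and 0.164 for Ldha and -0.0025 for Hk2. All of these values come from the same 6 arrays in 2 separate groups.

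Beyond Egln1 and Egln3, which are counted among the 10 genes, 11 further genes for HIF subunits and their regulators were tested. Of these, 0 passed in limma and 0 had an unadjusted p under 0.05; the median difference was 0.03. The smallest p values were those of Egln2, the third hydroxylase gene, with a difference of 0.20 (adjusted p = 0.355), and Vhl, with 0.21 (adjusted p = 0.452). HIF is controlled mainly through protein stability, which arrays do not read.

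Of 28 tested further genes known as hypoxia targets, 2 passed, both higher (7.14%, against 2.14% of all genes). Their median difference was 0.17, and 22 of the 28 were positive (78.6%, against 53.4% of all tested genes). Ddit4, which encodes REDD1, a stress-induced brake on mTOR, had values of 11.35, 11.50 and 11.06 in the mutants and 10.45, 10.27 and 10.32 in the controls. The groups were far apart, and Ddit4 rose by 0.96 (standard error 0.13, adjusted p = 0.0163). Igfbp1, whose secreted product binds insulin-like growth factors, read 8.21, 8.31 and 8.06 in the mutants and 6.60, 4.81 and 5.17 in the controls. It rose by 2.67 (standard error 0.41, adjusted p = 0.0262), but its control values were uneven and 2 of them lay below the filter value of 5.17, so the size is uncertain. Both calls were lost without control array 2, control array 3 or mutant array 2, and that of Igfbp1 also without mutant array 3 (adjusted p between 0.0536 and 0.140 over these).

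Of 17 other tested glycolytic enzymes and glucose or lactate carriers, 1 rose and 1 fell (11.8% called, against 2.14% of all tested genes). Their median difference was 0.09. Aldoc, the brain-type aldolase gene, went from 6.66 ± 0.37 to 7.91 ± 0.33 (SD, n = 3 per genotype), a rise of 1.25 (adjusted p = 0.0396). As the mean of its probe sets it gave 0.63 (adjusted p = 0.0943), its other probe set being dim (3.48 in the controls). The Aldoc call was also lost with the sex covariate and without mutant array 2 or any 1 control array (adjusted p between 0.0983 and 0.141). Pgam2, the muscle phosphoglycerate mutase gene, went from 11.24 ± 0.063 to 10.51 ± 0.018, and fell by 0.72 on the log2 scale (adjusted p = 0.0103). The remaining 15 were not called.

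Genes of pyruvate oxidation and respiration had mostly slightly negative values without a call. Of 11 genes of the pyruvate dehydrogenase complex and its regulators 8 were negative, with a median of -0.05 and 0 with an unadjusted p under 0.05; the smallest p values were those of Dld (-0.17, adjusted p = 0.433) and Pdhx (-0.17, adjusted p = 0.456), both genes of the complex. Of 21 genes of the citrate cycle and respiratory chain 15 were negative, with a median of -0.05, 0 calls and 2 unadjusted p under 0.05. Those were Idh3a (-0.22, adjusted p = 0.283), an isocitrate dehydrogenase subunit gene, and Ogdh (-0.46, adjusted p = 0.286), an oxoglutarate dehydrogenase gene.

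Among the relatives of Vegfa, Vegfd was the single call of 9 tested ligand and receptor genes (11.1%, against 2.14% of all tested genes). Vegfd, a growth factor for lymphatic vessels, had values of 7.14, 7.15 and 7.22 in the mutants and 7.99, 8.17 and 8.34 in the controls, and fell by 1.00 (standard error 0.11, adjusted p = 0.00982). Its other 2 probe sets gave -1.42 and -1.51. The list's median was -0.10, and in mutant array 1 it was -0.65 against 0.10 and 0.06 in mutant arrays 2 and 3.

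Of 8 tested relatives of Ndrg1 and genes of mitochondrial removal, 2 passed and both were NDRG family members. Ndrg2, prominent in differentiated tissues, rose by 1.41 (8.44, 8.95 and 8.45 in the mutants against 7.16, 7.13 and 7.31 in the controls, adjusted p = 0.00911). Ndrg4, known from heart and nervous tissue, rose by 0.96 (10.74, 11.08 and 11.33 against 9.97, 10.11 and 10.17, adjusted p = 0.0272), with 0.88 on its other probe set. In both the mutants lay above every control. Ndrg2 lost its call without control array 2 or 3, and Ndrg4 also without mutant array 2, without control array 1 and with the sex covariate (adjusted p between 0.0545 and 0.141 over these).

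**Figure D4:**
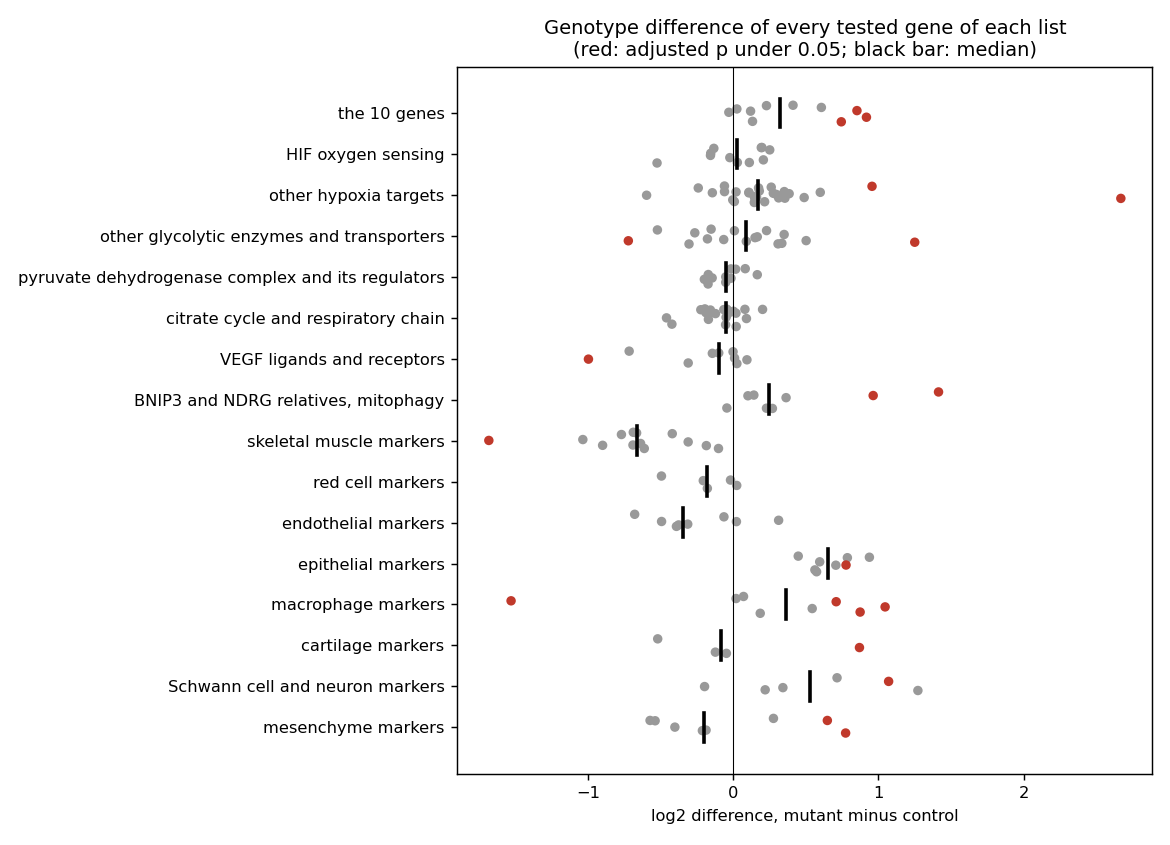
Each point is a tested gene placed by its log2 difference, mutant minus control, in its list; red marks an adjusted p under 0.05 and the black bar the list's median. The 10 genes have a median of 0.32, epithelial markers 0.65 and skeletal muscle markers -0.67, and pyruvate dehydrogenase and respiratory genes lie near 0.

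Epithelial and skeletal muscle markers differed in average level between the genotypes, mostly without a call. Several of the 10 genes are known to be expressed unevenly among cell types. All 8 epithelial markers were higher in the mutants on average, with a median of 0.65. Of them 1 passed (12.5%, against 2.14% of all tested genes): Pkp1, a desmosomal plakophilin gene (0.78, adjusted p = 0.0429). Pkp1 lost the call with the replicate numbers as a block (adjusted p = 0.0556), where 2 markers passed, and with the sex covariate (adjusted p = 0.0851). It was also lost with 50% of genes removed (0.0515) and with each probe set alone (0.0542). Leaving out mutant array 2, mutant array 3 or any 1 control array lost it too (adjusted p between 0.0567 and 0.162). Medians of the epithelial markers relative to the controls were 0.96, 0.66 and 0.31 in the mutants and between -0.05 and 0.05 in the controls. Slc2a1, Egln3 and the uncalled Bnip3 and Ldha had the mutants in that order, and Ndrg1 did not, with mutant array 1 its lowest mutant. How many of all tested genes had that order was not counted. Mutant array 1 was the highest array for 31.2% of all tested genes and the lowest for 32.6%. Medians of the skeletal muscle markers relative to the controls ran the other way, at -0.97, -0.53 and -0.32 in mutant arrays 1, 2 and 3. A graded order of the mutants was thus not particular to epithelial markers. Summed on the linear scale, the epithelial markers gave log2 levels of 14.16 to 14.75 in the mutants and 13.80 to 13.88 in the controls. All 13 skeletal muscle markers were lower, with a median of -0.67 and summed levels of 15.56 to 16.10 against 16.14 to 16.54. Of these 1 passed (7.69%), Actn3, encoding fast-fibre alpha-actinin (-1.68, adjusted p = 0.0105), and 7 with the replicate numbers as a block. The Actn3 call was lost without mutant array 2 (adjusted p = 0.0544), control array 2 (0.0702) or control array 3 (0.0701). All 8 and all 13 lay above the intensity filter. In bulk RNA fewer cells of a type and less RNA per cell cannot be told apart, and the part of epithelium and muscle in the differences of Slc2a1, Ndrg1, Egln3 and Pgam2 was not tested.

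Red cell markers, relevant to oxygen supply, had 0 calls among 5 tested in limma and 1 unadjusted p under 0.05; Slc4a1, the red cell anion exchanger gene, gave -0.49 (adjusted p = 0.0873; called without mutant array 1, at -0.60 and adjusted p = 0.0109, and with array weights, at 0.00649) and Alas2, of haem synthesis, -0.21 (adjusted p = 0.500). Their summed levels were 14.13 to 14.31 in the mutants and 14.08 to 14.52 in the controls, which overlap. Endothelial markers had 0 calls among 8 tested and 1 unadjusted p under 0.05, with a median of -0.34. Their median was -0.80 in mutant array 1 and -0.05 and -0.08 in mutant arrays 2 and 3. The smallest p values were those of Cldn5, a tight junction gene of vessels (-0.68, adjusted p = 0.0555), and Esam (-0.38, adjusted p = 0.313). Cldn5 was called without mutant array 1 (-0.56, adjusted p = 0.0360), with array weights (adjusted p = 0.0202) and with genes as means of probe sets (adjusted p = 0.0427), which made 1 call in the list. Their summed levels were 10.42 to 10.93 in the mutants and 10.88 to 11.03 in the controls.

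Of 8 macrophage markers 3 rose and 1 fell: the complement genes C1qa, C1qb and C1qc by 1.05, 0.87 and 0.71 (adjusted p = 0.0152, 0.0482 and 0.0349), against Mrc1, the mannose receptor gene, by -1.53 (adjusted p = 0.00775). The C1qb call was lost under median centring (adjusted p = 0.0544), quantile normalization (0.0579), the stricter filter (0.0569) and each probe set alone (0.0613). With the sex covariate the calls of C1qb (0.112) and C1qc (0.0779) were lost. Without mutant array 2 all 3 complement calls were lost (adjusted p between 0.0620 and 0.115). Those of C1qb and C1qc were also lost without control array 1 (0.106 and 0.0835), and that of C1qc without mutant array 3 (0.0599). Of 8 mesenchyme markers 2 passed, the matrix genes Lum (0.77 higher, adjusted p = 0.0152) and Dcn (0.65 higher, adjusted p = 0.0238), while the list median was -0.20. As the mean of its probe sets Dcn gave 0.41 (adjusted p = 0.0589), and its call was also lost with the sex covariate (adjusted p = 0.0613) and without mutant array 2, mutant array 3 or control array 1 (adjusted p between 0.0515 and 0.0783). Every list call named here was lost when control array 2 or control array 3 was left out, and that of Lum also without control array 1. Of 4 cartilage markers tested, 3 were negative and the median was -0.08; the call was Col9a1, a cartilage collagen gene, higher by 0.87 (adjusted p = 0.0283), lost when its probe sets were averaged (0.57, adjusted p = 0.0683) and with the sex covariate (adjusted p = 0.0693). Of 6 Schwann cell and neuron markers 5 were positive, with a median of 0.53, 4 with all mutants above all controls and 4 with an unadjusted p under 0.05. The call among them (16.7%) was Stmn2, a neuronal tubulin-binding protein gene, higher by 1.07 (adjusted p = 0.0272). It was lost when its probe sets were averaged (0.92, adjusted p = 0.0707) and with the sex covariate (adjusted p = 0.0719). Leaving out mutant array 2, mutant array 3 or control array 1 also lost it (adjusted p between 0.0530 and 0.0968). With the replicate numbers as a block 3 of the Schwann cell and neuron markers passed. Their part in the values of Ndrg1 and its relatives, which Schwann cells and neurons also express, was not tested.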

How the data were processed

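Total RNA of 6 tongues was read on Affymetrix arrays. The deposited table holds log2 values that the authors made with RMA, per the submitters' processing notes, with no version given; arrays lay between 2.53 and 14.93 with medians of 5.92 to 5.98. RMA compresses dim probe sets and evens out shifts shared by most genes. Arrays have no read depth; their number limits precision (median standard error of a difference 0.117).

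Of 45101 probe sets, 64 were controls and 34945 had a single gene symbol; through Entrez identifiers 0 symbols changed against RefSeq (GRCm38.p6). The brightest probe set stood for each gene, and genes with means in the lowest 25% (under 5.17) were left out. The genotype difference was fitted in R 4.3.3 by limma 3.58.1 (lmFit, eBayes, 2-sided, Benjamini-Hochberg over all tested genes or, unfiltered, over 45037 probe sets); the code was tested on simulated data. Figures used matplotlib 3.10.9. Of 185 list genes, 13 were read by no single-gene probe set and 7 lay under the filter.

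Members and lists were chosen with earlier results of these data known, and so supply no independent support. The rule for named genes takes every member, Tgfbr2, up to 4 called genes of each list by p (or the 2 with the smallest p where none passed) and the 5 genes most like the leading member.

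Both groups carry the numbers 1 to 3 in their titles. Deviations from the group means correlated at 0.309, 0.105 and 0.206 between same-numbered arrays, all over 0.1, so the numbers were taken to pair them. This pairing rests on titles and these values alone. Mutant array 2 with control array 3 gave 0.196 and mutant array 3 with control array 2 gave 0.147. Both exceed the 0.105 of the arrays numbered 2, so the cut of 0.1 does not set same-numbered pairs apart. The arrays numbered 1 also shared high Xist and those numbered 2 high Y-linked genes, whereas those numbered 3 differed in sex. The main fits and their p-values left the pairing out, and the replicate block was fitted only as an alternative.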

Additional observations from a re-analysis of the deposited data

How the results depend on the processing

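Alternatives changed the filter (none, or 50% of genes removed), the summary of probe sets (mean, or each alone), the scaling (median centring, quantile normalization), the fit (robust with trend, array weights, replicate block, sex as a covariate), the arrays (each left out) and the threshold; probe-set fits without each array were added after seeing the data. Between 2 and 4 of the 10 genes passed in limma except without mutant array 2 (1) or control array 1 (1), 2 (0) or 3 (0), a range of 0 to 4. The median difference of the 10 stayed between 0.22 and 0.38 except as means of probe sets (0.19), and was 0.23 to 0.38 with arrays left out. Over all tested genes, 292 were called; 151 with 50% of genes removed, 1034 with array quality weights, 490 with the replicate block, 135 with the sex covariate, 549 at an adjusted p under 0.1, and 16 to 670 with arrays left out. Against 337 called probe sets, 472 passed with the block and 0 to 553 with arrays left out; the 0, without control array 2, stood beside 3822 at an unadjusted p under 0.05. The paired fit with the replicate block changed no call of the 10 genes; over all tested genes it raised the calls of higher genes from 180 to 283. Values without a call that changed sign were Ldha with median centring (-0.011), array weights (-0.012), and without mutant array 1 (-0.010) or 2 (-0.0032), with a range of -0.010 to 0.089 over arrays left out; Hk2 with quantile normalization (0.010), array weights (0.10), sex (0.014) and without mutant array 1 (0.14; range -0.12 to 0.14); Rps20 with median centring (-0.0014); and Tgfbr2 without mutant array 1 (0.014; range -0.30 to 0.014). The cause was not tested. Differences near 0 and probe sets near the filter value are the limit of 3 arrays per genotype.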
